A study of Mus musculus with 2 samples.

Results

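Arg1-expressing macrophages were taken from single-cell RNA sequencing (scRNA-seq) of CD45+ immune cells, the cells that carry the leukocyte surface protein CD45, sorted from subcutaneous B16F10 tumours, a mouse melanoma line. They numbered 164 of the 14624 cells kept in the series: 106 of 5688 in the KO library and 58 of 8936 in the WT library. A cell was kept with at least 200 genes detected and at most 15% of its unique molecular identifiers (UMIs, the counted molecules) from mitochondrial genes. A kept cell was a member when it held at least 4 UMIs of the macrophage genes Csf1r, Adgre1, Cd68 and Fcgr1 together and at least 2 UMIs of Arg1. The sum of C1qa, C1qb, C1qc, Arg1, Ms4a7 and Mrc1 had to exceed that of the monocyte genes Hp, Chil3, Plac8 and Ifitm6. At most 1 UMI of the dendritic cell genes Cd209a, Flt3, Xcr1 and Fscn1, 0 UMIs of the lymphocyte genes Cd3d, Cd3e, Cd79a and Ncr1, and at most 2 UMIs of the cycling genes Mki67, Top2a and Birc5 were allowed. The cells were thus chosen by the UMIs of these 25 genes and the totals per cell, and the levels of these genes are given as a description.

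The KO library came from Lyz2-Cre-Kcnj2f/f mice, named Kcnj2CKO by the submitters, in which Cre recombinase under the Lyz2 locus acts on a floxed Kcnj2 allele. The WT library came from Kcnj2f/f mice, which carry the same floxed allele without the Cre. Kcnj2 encodes Kir2.1, an inwardly rectifying potassium channel, and the comparison asked how its loss bears on the tumour microenvironment. Each library pooled the tumours of 3 mice at day 10, and there was 1 library per genotype. Lyz2 is transcribed in monocytes, macrophages and neutrophils, so the deletion is not restricted to the cells described here, and other cells of the tumour keep Kcnj2. The labels give neither the sex and age of the mice nor the deleted part of Kcnj2.

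Arg1 encodes arginase 1, a cytosolic enzyme that splits arginine into ornithine and urea. Tumour macrophages that make it draw arginine away from T cells and feed ornithine into polyamine and proline synthesis. Its transcription in macrophages is known to answer to interleukin 4 through STAT6, and to hypoxia, lactate and cyclic AMP, so in tumours it is found in cells that also make inflammatory cytokines.

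The libraries held 6356 barcodes and 57047535 UMIs (KO) and 9677 barcodes and 55219440 UMIs (WT), and 10.46% and 7.585% of the barcodes were removed for their mitochondrial share. Kept cells had a median of 8026 UMIs in KO and 4398.5 in WT, while T cells had 4812.5 and 4846 and cells of the monocyte gate 9897 and 8816. Members had a median of 11357 (2155 to 23440) and 9350 (1884 to 18227) UMIs. The libraries shared 63 barcodes, and 0 members carried one. With 1 library per genotype no difference between genotypes has a replicate check: values below are sums of UMIs over the member cells as CPM, the counts per 1000000 UMIs of the group, with exact Poisson 95% intervals, and log2 ratios with exact binomial 95% intervals, all of which cover counting error only and no difference between mice. A gene is called higher or lower in KO when it differs by 1.5-fold or more and averages 20 CPM or more over the libraries.

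The label's own markers Thbs1 and Inhba were not used by the rule and are described here beside T cells. Members and rules were chosen with earlier results of these data known, so these levels are no independent check. Ratios of both genes to Arg1-negative macrophages are given further below. Thbs1, which encodes the matrix protein thrombospondin 1, was found in 89.62% of KO and 86.21% of WT members, and Inhba, the subunit of activin A, in 39.62% and 24.14%. After every cell was thinned to 3000 UMIs the shares were 84.76% and 88.89% for Thbs1 and 28.57% and 18.52% for Inhba. T cells should lack both and had median depths of 4812.5 and 4846 UMIs. A Thbs1 UMI was found in 11.51% and 6.189% of them and an Inhba UMI in 0.677% and 0.683%. The T cell gate left out cells with a UMI of Csf1r, Adgre1, Cd68 or Fcgr1, so T cells here and below are not an unselected background. The inflammatory genes Il1b, which encodes interleukin 1 beta, at 13652 and 11611 CPM, and Cxcl2, a neutrophil-attracting chemokine, at 26463 and 26863 CPM, were among the most abundant messages of both libraries.

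Markers of T, B, NK and stromal cells were low, while those of monocytes were not. The summed levels in KO and WT members were 15.5 and 31.1 CPM for 7 T cell genes, 21.5 and 60.3 CPM for 7 B cell genes, 44.7 and 3.89 CPM for 6 NK cell genes, and 24.0 and 50.6 CPM for 8 stromal genes. The 8 neutrophil genes summed to 158 and 115 CPM, of which Trem1 made up 132 and 77.8 CPM, while Retnlg, G0s2 and Cxcr2 were at 0 in both. The 4 monocyte genes outside the rule summed to 1608 and 1089 CPM, against 1509 and 1126 CPM in macrophages of the same gate without an Arg1 UMI. Behind these sums Vcan was higher in Arg1-expressing cells (log2 1.05 in KO and 1.28 in WT), while Ly6c2 had -0.76 and -1.01 and Ccr2 -0.30 and -0.71. The 5 dendritic cell genes outside the rule summed to 105 and 35.0 CPM, of which Ccr7 made up 92.7 and 9.72 CPM, and the 8 melanoma genes to 148 and 85.6 CPM. The part these cell types or doublets had in the results was not tested.

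Arg1-expressing macrophages made up a larger share of kept cells in the KO library, and about the same share of its macrophages. They were 1.864% of kept KO cells (1.528 to 2.250) and 0.6491% of kept WT cells (0.4932 to 0.8383), a log2 ratio of 1.52 (1.06 to 1.98). After thinning to 3000 UMIs and applying the rule anew they were 0.9291% (43 of 4628) and 0.4613% (26 of 5636), a log2 ratio of 1.01 (0.31 to 1.71). All macrophages of the gate were 5.222% of KO and 1.936% of WT cells, and cells of a monocyte gate 15.14% and 4.197%. Among the macrophages of the gate, Arg1-expressing cells were 35.69% in KO (106 of 297) and 33.53% in WT (58 of 173), a log2 ratio of 0.09 (-0.28 to 0.46) that covers 0. Among macrophages and monocytes together they were 9.154% and 10.58%. The rule also left out Arg1-positive cells unevenly. Kept cells with at least 2 Arg1 UMIs, members or not, were 216 of 5688 in KO and 165 of 8936 in WT. Of these, 28 KO and 54 WT cells were under the macrophage-gene minimum. Another 11 and 34 passed it but held a lymphocyte UMI. The part of the rule in the ratio of shares was not tested. Without a cell number per tumour, a larger share cannot be told apart from fewer cells of other types.

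Arg1 itself spanned a wide range within each library. A KO member held between 2 and 161 Arg1 UMIs with a median of 16, and a WT member between 2 and 156 with a median of 16.5. Summed over cells, Arg1 was at 2344 CPM in KO (2257 to 2434, 2730 UMIs) and 3394 CPM in WT (3236 to 3557, 1745 UMIs). Since at least 2 Arg1 UMIs were required of every member, these levels describe the rule and were given no test. Members held 66.20% of all Arg1 UMIs of the KO library and 47.41% of those of the WT library. The monocyte gate had 48.9 and 34.2 CPM, a level the rule also limits, since a cell whose Arg1 raised the sum above the monocyte genes left that gate. An Arg1 UMI was found in 0.903% of KO and 0.939% of WT T cells. Just inside the rule, 11 KO and 7 WT members held exactly 2 Arg1 UMIs, and just outside it 26 KO and 11 WT cells held 1. At the minimum of 4 macrophage-gene UMIs lay 6 KO and 4 WT members, and 5 KO and 12 WT cells missed it by 1.

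The cells were uneven for most secreted products. Per 10000 UMIs of a cell, Thbs1 had a median of 47.45 and a highest value of 264.6 in KO members and a median of 36.97 and a highest value of 130.4 in WT members. Inhba had a median of 0 in both libraries and reached 256.0 in KO and 68.66 in WT. Spp1, which encodes the adhesive phosphoprotein osteopontin, had medians of 1.227 and 0.9865 but reached 210.6 in KO and 532.7 in WT. For Inhba, Spp1, Cxcl3 and Rsad2 the sums over cells therefore rest on few cells: the 5 cells with the most UMIs held 59.7% of KO and 91.4% of WT Inhba UMIs, 55.0% and 69.5% of Spp1, 41.7% and 58.0% of Cxcl3, and 58.3% and 93.2% of Rsad2.

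**Figure D1:**
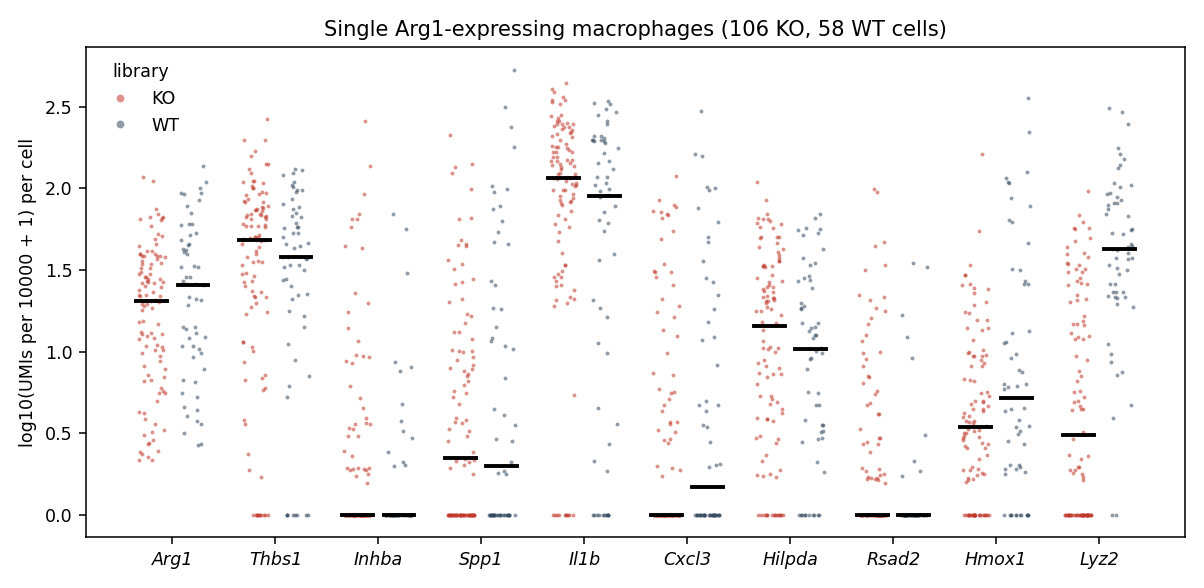
Levels of 10 genes in single Arg1-expressing macrophages, as log10 of UMIs per 10000 of the cell plus 1, with 106 KO cells left of 58 WT cells for each gene and the black line at the median. Arg1, Thbs1, Il1b and Hilpda were found in most cells of both libraries, Inhba, Cxcl3 and Rsad2 lie at or near 0 at the median, and Lyz2 has a median of 2.077 per 10000 UMIs in KO and 41.29 in WT cells.

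Arg1-expressing macrophages were then set against the Arg1-negative macrophages of the same gate and library, which met every other part of the rule and held 0 Arg1 UMIs (165 KO and 104 WT cells). Arg1 also counts in the sum that had to exceed the monocyte genes. Members could therefore pass that part through Arg1, while Arg1-negative cells needed C1qa, C1qb, C1qc, Ms4a7 or Mrc1 for it. The groups thus differ by rule in more than Arg1, and the part of this in the ratios was not tested. Genes of hypoxia, sugar breakdown, matrix and neutrophil-attracting chemokines were among those higher in the Arg1-expressing cells, and genes of MHC class II antigen presentation among those lower, in both libraries. Of 4933 genes that averaged 20 CPM or more, 125 (2.53%) were higher and 91 (1.84%) lower by 2-fold or more in both libraries. Within the KO library alone 3.69% were higher and 5.64% lower, within the WT library 6.61% and 6.97%, and 0.0608% (3 genes) went in opposite directions in the libraries. With each library's ratios centred on their median the counts were 169 and 60, and with totals taken without mitochondrial and ribosomal protein genes and Lyz2 they were 115 and 142. Median depths were 11357 and 9277 UMIs in KO and 9350 and 8558 UMIs in WT for Arg1-expressing and Arg1-negative cells. Depth was not matched in these sums. When cells were thinned to 3000 UMIs before the rule, which also left fewer members, 113 of 4920 genes were higher and 205 lower in both libraries. The part of depth alone was not tested. The libraries are not replicates of 1 group, and the values are given side by side with no test.

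Inflammatory and secreted factors were among the genes with the largest ratios. Il6, an acute-phase cytokine, was at 62.7 CPM in Arg1-expressing and 5.91 CPM in Arg1-negative KO cells, and at 87.5 and 4.65 CPM in WT cells, log2 ratios of 3.41 and 4.23. Cxcl3, a ligand of the neutrophil receptor CXCR2, was at 1070 and 177 CPM in KO cells and 2482 and 109 CPM in WT cells (2.59 and 4.50). Ppbp, another CXCR2 ligand, was at 55.0 and 8.54 CPM in KO cells and 148 and 1.16 CPM in WT cells (2.69 and 6.99), where the WT ratio, with an interval of 4.47 to 12.31, rests on 1 UMI in Arg1-negative cells. The intervals of these ratios lie above 0 in both libraries, while Il6 was found in 23 KO and 6 WT members and Ppbp in 12 and 8. Fn1, which encodes fibronectin and was found in 97 of 106 KO and 47 of 58 WT members, was at 1983 and 474 CPM in KO cells and 1822 and 447 CPM in WT cells (2.07, 1.94 to 2.19, and 2.03, 1.86 to 2.20). The remaining 11 genes of the upper end were Rgcc, Ccl24, Errfi1, Atp2b4, Trem1, Gpat3, Ero1l, Abca1, F5, Nt5e and Pdpn, with log2 ratios from 1.90 to 3.96 in KO and 1.94 to 3.28 in WT. Among them Trem1 encodes a receptor that amplifies inflammatory signals, Nt5e the ectoenzyme CD73 that makes adenosine, and Abca1 a cholesterol exporter. Ccl24 and Gpat3 lost their direction when cells were thinned before the rule was applied, with smaller ratios of -1.40 and -0.26.

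Genes induced by hypoxia were higher as a group. Of 12 list genes, 9 were higher by 2-fold or more in both libraries and 0 lower, and the list's median log2 ratio was 1.57 in KO and 1.61 in WT, beside -0.15 and -0.11 over all genes. Hilpda, which encodes a lipid droplet protein that restrains lipolysis, was at 2112 CPM in Arg1-expressing against 594 CPM in Arg1-negative KO cells and 1741 against 555 CPM in WT cells (1.83 and 1.65). Egln3, an oxygen-sensing prolyl hydroxylase that tags HIF proteins, was at 117 against 24.3 CPM in KO and 97.2 against 29.1 CPM in WT cells (2.26 and 1.74). Bnip3, a mitochondrial protein of mitophagy, had ratios of 1.97 and 1.62, Ero1l, an oxidase of protein folding, 2.02 and 2.31, and Slc2a1, the glucose transporter GLUT1, 1.40 and 2.05. The 3 list genes outside the call were P4ha1 (0.86 and 1.05), Hif1a itself (0.76 and 1.13) and Higd1a (0.98 and 0.70).

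HIF complexes are known to bind DNA at a core of ACGTG, and the promoters of 3 of these genes and of the glycolytic gene Pgk1 are shown because these genes were higher in Arg1-expressing cells of both libraries. The windows run from 250 bases before to 50 after the start of the RefSeq transcript on build GRCm38.p6, 5′ to 3′ on the gene's strand, with each ACGTG or its reverse complement CACGT in capitals. Hilpda lies at chr6:29272376-29272675 on the plus strand (the second of 2 listed starts), Bnip3 at chr7:138909457-138909756 and Egln3 at chr12:54203825-54204124 on the minus strand, and Pgk1 at chrX:106186850-106187149 on the plus strand. Of several listed starts the first that holds ACGTG was shown, so the Hilpda window was chosen for its motif, which its first listed start lacks.
Hilpda: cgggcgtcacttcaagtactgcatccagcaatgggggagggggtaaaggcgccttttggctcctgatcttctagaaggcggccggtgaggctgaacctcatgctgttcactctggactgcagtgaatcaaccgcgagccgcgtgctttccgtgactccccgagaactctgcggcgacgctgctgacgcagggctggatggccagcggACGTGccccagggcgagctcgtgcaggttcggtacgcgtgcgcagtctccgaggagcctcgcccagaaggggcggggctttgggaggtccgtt
Bnip3: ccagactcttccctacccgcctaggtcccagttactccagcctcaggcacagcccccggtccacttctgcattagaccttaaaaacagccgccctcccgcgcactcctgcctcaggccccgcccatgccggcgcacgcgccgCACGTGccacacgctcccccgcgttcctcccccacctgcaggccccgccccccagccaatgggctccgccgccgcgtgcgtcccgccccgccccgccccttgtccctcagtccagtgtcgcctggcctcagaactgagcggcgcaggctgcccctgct
Egln3: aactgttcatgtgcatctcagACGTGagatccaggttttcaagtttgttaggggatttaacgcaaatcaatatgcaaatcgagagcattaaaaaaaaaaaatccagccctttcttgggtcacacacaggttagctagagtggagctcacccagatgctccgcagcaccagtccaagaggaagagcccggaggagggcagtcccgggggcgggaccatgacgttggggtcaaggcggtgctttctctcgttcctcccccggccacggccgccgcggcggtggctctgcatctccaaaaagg
Pgk1: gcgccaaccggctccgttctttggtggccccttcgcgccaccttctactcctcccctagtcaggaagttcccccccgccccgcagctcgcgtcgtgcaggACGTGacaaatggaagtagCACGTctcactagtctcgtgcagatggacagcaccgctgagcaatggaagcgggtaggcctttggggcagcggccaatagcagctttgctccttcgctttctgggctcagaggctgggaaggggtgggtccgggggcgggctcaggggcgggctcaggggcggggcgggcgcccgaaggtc
On either strand ACGTG stood in 19.6% of 32851 promoters of this length and in at least 1 promoter of 21.8% of 27025 genes. Of the hypoxia list it stood in 9 of the 9 genes with an entry (no entry for Ndrg1, Bnip3l and Ero1l), of the glycolysis list in 11 of 16, and of the MHC class II list in 0 of 5. The list was drawn from known hypoxia genes, some of them known for such a motif, and a match of letters is a description and not evidence of binding.

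Glycolytic enzymes went the same way by smaller ratios. The median over 16 genes was 0.86 in KO and 0.94 in WT, and 4 of them (Hk1, Pgk1, Eno1 and the lactate transporter gene Slc16a3) passed 2-fold in both libraries. Pgk1, which encodes phosphoglycerate kinase and was found in 104 of 106 KO and 58 of 58 WT members, was at 1140 against 463 CPM in KO and 1161 against 492 CPM in WT cells (1.30 and 1.24). Slc16a3 had ratios of 1.36 and 1.48. Hk3 was the 1 list gene with a ratio below 0 in both libraries, -1.28 and -0.39.

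Within arginine and polyamine metabolism, 2 of the 13 genes past the filter beside Arg1 were higher in both libraries. Smox, which encodes the enzyme that oxidises spermine, was at 318 against 126 CPM in KO and 311 against 107 CPM in WT cells (1.33 and 1.54), and Arg2, the mitochondrial arginase, had ratios of 1.57 and 1.10. Odc1, which turns ornithine into putrescine, had ratios of 0.36 and -0.14, and Ass1, which rebuilds arginine from citrulline, -0.02 and 0.34. Nos2, the arginine-consuming nitric oxide synthase, was found in 9 KO and 4 WT members at 39.5 and 15.6 CPM.

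Matrix and activin genes were partly higher. Of 16 genes of the activin, TGF-beta and matrix list, 6 were higher in both libraries, among them Inhba (2.69 in KO and 1.39 in WT), Thbs1 (1.5 and 1.79), Fn1, Spp1 (1.26 and 3.12), and Timp1 (1.38 and 1.03), a metalloproteinase inhibitor. Tgfb1 itself, at 210 against 186 CPM in KO and 193 against 142 CPM in WT cells, did not pass the call (0.17 and 0.44). Vegfa, an angiogenic factor, was at 739 against 257 CPM in KO and 504 against 116 CPM in WT cells (1.52 and 2.12). Of 11 interleukin and TNF genes, Il6, Il1a (3.36 and 1.45) and Lif (1.18 and 2.33) were higher in both libraries, while Il1b had 0.74 and 0.54 and Tnf 0.36 and -0.19. Among chemokines, 4 of 18 were higher (Ccl24, Cxcl1, Cxcl2 and Cxcl3) and Ccl12 lower (-1.24 and -1.34).

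Genes of antigen presentation to CD4 T cells were partly lower. Of 7 MHC class II genes past the filter, 3 were lower in both libraries and 0 higher, and the list median was -1.01 in KO and -1.08 in WT. Ciita, the master regulator of these genes, was at 36.9 against 133 CPM in KO and 31.1 against 135 CPM in WT cells (-1.85 and -2.12). H2-DMb1, a subunit of the peptide-loading protein H2-M, was at 209 against 608 CPM in KO and 241 against 917 CPM in WT cells (-1.54 and -1.93), and its partner H2-DMa had -1.01 and -1.70. Cd74, the invariant chain, and the chains H2-Aa, H2-Ab1 and H2-Eb1 had ratios from -1.02 to -0.70 in KO and -1.08 to -0.88 in WT. The remaining genes of the lower end were Clec4b1 (-2.34 and -2.72), a C-type lectin, Rnase6, Ccnd1, Fgd2, Naaa, Fcgrt, Grk3, Ifit3, Cd72, Apex1, Slamf8, Tmem176a and Frmd4b, which had 11 to 57 UMIs in KO and 1 to 21 in WT members. The 5 dendritic cell marker genes summed to 105 CPM in Arg1-expressing and 198 CPM in Arg1-negative KO cells and to 35.0 and 34.9 CPM in WT cells, and their part in these ratios was not tested.

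**Figure D2:**
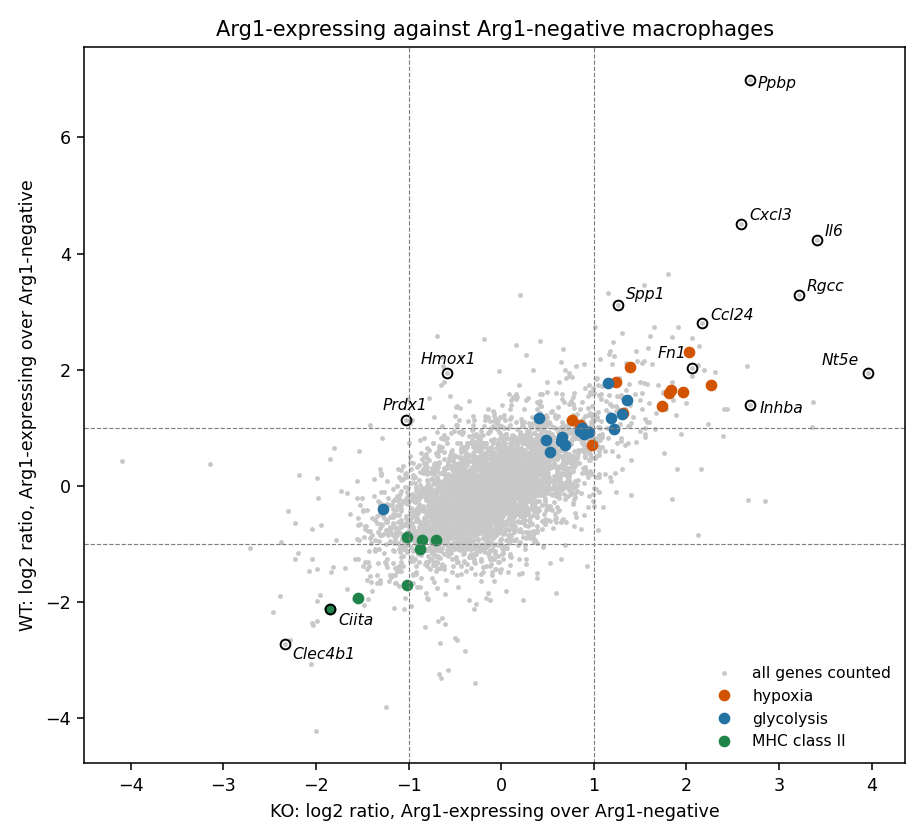
Log2 ratio of summed CPM, Arg1-expressing over Arg1-negative macrophages, for each gene of 20 CPM or more in the KO library (x axis) and the WT library (y axis), with dashed lines at 2-fold and 3 gene lists in colour. Hypoxia genes lie in the upper right, with medians of 1.57 in KO and 1.61 in WT, MHC class II genes in the lower left at -1.01 and -1.08, and Prdx1 and Hmox1 lie left of 0 in KO and above 0 in WT.

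Within each library other genes were ranked by their correlation with the Arg1 level, which varied from cell to cell, and those named are the ends of the ranking. After thinning to 3000 UMIs, Spearman coefficients with Arg1 were computed over 105 KO and 54 WT members for 1283 genes found in at least 20% of members. They are a description, since the cells of a library share their source, and no p is given. Ranked by the weaker of the library values, highest were Hilpda, at 0.38 in KO and 0.45 in WT, and Srgn, the proteoglycan core of secretory granules, at 0.33 and 0.61. The glycolysis genes Gapdh (0.31 and 0.38), Pgk1 (0.28 and 0.45) and Gpi1 (0.25 and 0.41) and the hypoxia genes Bnip3 (0.27 and 0.35) and Vegfa (0.33 and 0.26) followed, with Prdx6, Cd14 and Nlrp3. By the same measure the lowest were Cebpb (-0.35 and -0.26), a myeloid transcription factor, and Atf3 (-0.40 and -0.24), a stress-induced repressor. Rack1, Huwe1, Hnrnpu, Cxcl16, Tomm20, H2-DMb1, Slc38a1 and Edf1 lay between -0.21 and -0.33. In at least 1 library Tomm20 (0.034) and Slc38a1 (0.099) were above 0 after thinning to 5000 UMIs, and Edf1 (0.066) by Pearson's coefficient without thinning.

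Members were also split by their Arg1 UMIs after thinning into 0 or 1, 2 to 4, 5 to 14 and 15 or more, with 21, 22, 49 and 13 KO cells and 11, 10, 20 and 13 WT cells. Hypoxia genes summed to 2889, 4985, 5571 and 7641 CPM in KO and 2606, 4333, 5667 and 4974 CPM in WT from the lowest to the highest bin. Their level was therefore higher in each bin above the lowest, but in WT it was not highest in the top bin. Glycolysis genes stood higher with each bin, at 11286, 15061, 16190 and 18590 CPM in KO and 10485, 11333, 16433 and 17256 CPM in WT. MHC class II genes were highest at 2 to 4 Arg1 UMIs, 27424 CPM in KO and 22333 CPM in WT, and lowest at 15 or more, 12051 and 14667 CPM. Spp1 reached 2026 CPM in KO and 7385 CPM in WT in the top bin, and Inhba peaked at 5 to 14, with 1293 and 717 CPM, and stood at 256 and 76.9 CPM in the top bin. Bins of 10 to 22 cells rest on few cells, in particular for Spp1 and Inhba.

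**Figure D3:**
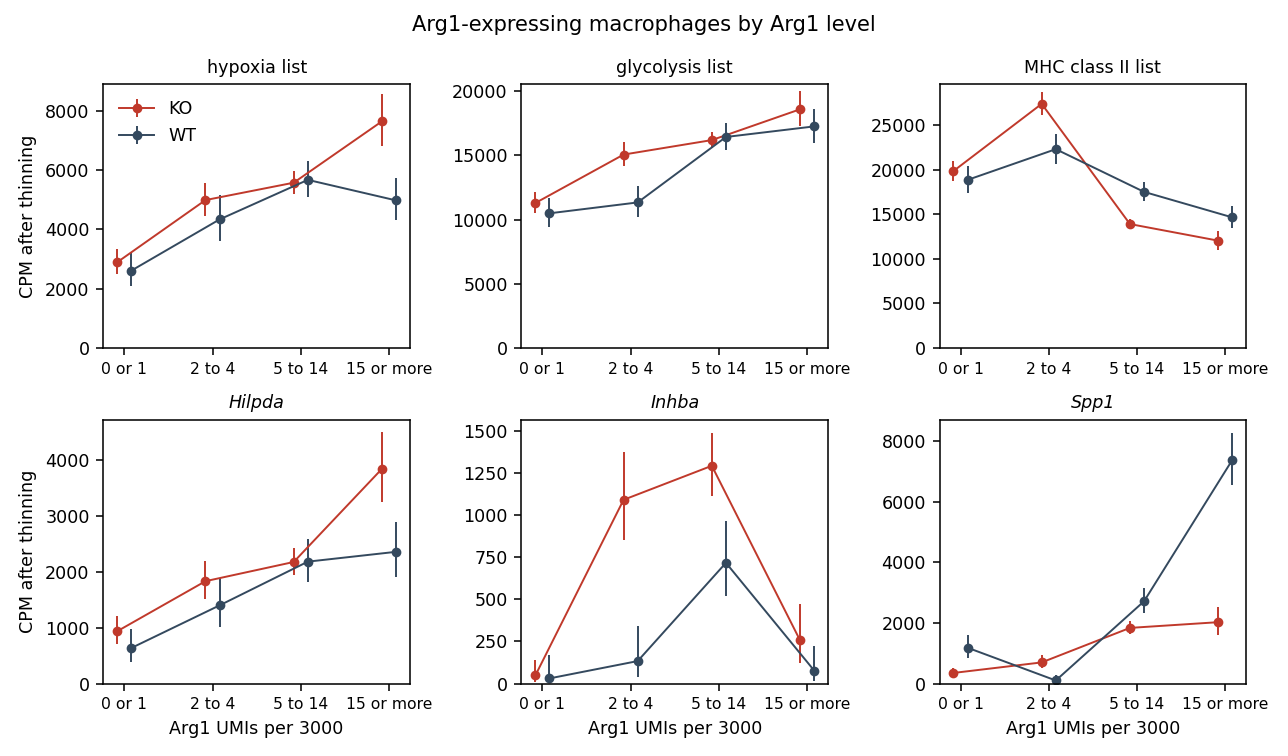
CPM after thinning to 3000 UMIs per cell, with exact 95% Poisson intervals, of 3 gene lists and 3 genes in Arg1-expressing macrophages split by their Arg1 UMIs, KO in red and WT in dark blue. Hypoxia and glycolysis genes stand higher in the upper bins, MHC class II genes lower at 5 or more Arg1 UMIs than at fewer, and Inhba is highest at 5 to 14 Arg1 UMIs in both libraries.

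KO and WT members were compared next, beginning with the targeted gene and the Cre locus. Kcnj2 (chromosome 11) had 27 UMIs in KO members, 23.2 CPM, and 10 UMIs in WT members, 19.4 CPM, a log2 ratio of 0.25 (-0.84 to 1.46) that covers 0. In Arg1-negative macrophages it was at 8.54 and 19.8 CPM (-1.21, -2.37 to -0.08). A Kcnj2 UMI was found in 11.32% of KO and 12.07% of WT members, and in 0.226% and 0.128% of T cells. The 5 KO cells with most held 74.1% of its UMIs, and the label of the KO library could not be checked by this gene in these cells: 3′ tags count a transcript whose deleted part the labels do not give. Lyz2, which encodes lysozyme and carries the Cre, had 1376 CPM in KO members and 6331 CPM in WT members (-2.20, -2.29 to -2.12), and a Lyz2 UMI was found in 61.32% and 96.55% of them, against 7.901% and 15.62% of T cells. In Arg1-negative macrophages its ratio was -2.72, so it was lower in KO in both populations. Insertion of Cre at the Lyz2 locus is known to interrupt that allele.

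Across 4773 genes of 20 CPM or more, 593 (12.4%) were higher and 536 (11.2%) lower in KO members by 1.5-fold or more. Many of these counts are small: among the 699 genes of 200 CPM or more, a minimum chosen after seeing the data, 62 (8.87%) were higher and 26 (3.72%) lower. In Arg1-negative macrophages 485 of 5058 genes (9.59%) were higher and 282 (5.58%) lower. The list counts below are to be read against these shares.

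Antiviral genes of the type I interferon response were higher in KO members at full depth. Of the 15 of 20 list genes past the filter, 12 were higher in KO and 0 lower, with a median log2 ratio of 0.82 beside -0.00 over all genes, and in Arg1-negative macrophages 11 of 17 were higher with a median of 1.08. Not all of these ratios are resolved by counting: the intervals of Ddx58 (0.82, -0.04 to 1.78), Oas3 (0.91, -0.23 to 2.23) and Stat2 (0.66, -0.22 to 1.63) cover 0. Rsad2, which encodes the antiviral enzyme viperin, was at 718 CPM in KO members (670 to 768) and 142 CPM in WT members (111 to 179), a ratio of 2.34 (1.99 to 2.70). It was found in 44.34% of KO and 15.52% of WT members, and 30.48% and 12.96% after thinning, against 7.111% and 3.286% of T cells. Oasl1, of the oligoadenylate synthetase family, was at 236 and 40.8 CPM (2.53). Cxcl10, an interferon-induced chemokine for T cells, was at 1824 and 634 CPM (1.52), and Ifih1, the RNA sensor MDA5, at 440 and 177 CPM (1.31). Ifnb1, the interferon beta gene itself, had 213 and 50.6 CPM (2.07, 1.49 to 2.72).

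The interferon ratios depended on which cells were taken. With every cell thinned to 3000 UMIs before the rule, which left 43 KO and 26 WT members, the list median was -0.03 and Ifih1 had -0.09, while Rsad2 had 1.73, Oasl1 1.27, Ifnb1 1.08 and Cxcl10 0.88. As a mean of the single cells' CPM the list median was 0.38, and without the 5 cells with most UMIs of each gene it was 1.76, over 11 genes. Leaving out 5 cells, here and below, takes 5 of 106 KO but 5 of 58 WT members. This setting favours higher ratios: over all genes 26.4% were then higher and 3.87% lower in KO, beside 12.4% and 11.2% in the main setting. Rsad2 had 4.95 without 5 cells and 4.06 with at least 8 macrophage-gene UMIs. Of the WT Rsad2 UMIs, 93.2% lay in 5 cells. Only Oas1a, Irf7 and Bst2 of the 15 genes were within 1.5-fold, at 0.17, 0.26 and 0.02.

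The interferon-stimulated response element, the DNA site of the interferon-activated transcription factor complex, holds a repeat of GAAA, searched here as GAAANNGAAA on both strands. The promoters of 3 interferon genes named above are shown because they hold the motif, with each match in capitals, in the same window and build. Of these, Ifit3 was named among the genes lower in Arg1-expressing cells. The interval of its KO over WT ratio in members (1.56, -0.20 to 3.95) covers 0. Rsad2 lies at chr12:26456403-26456702 on the minus strand, Cxcl10 at chr5:92348840-92349139 on the minus strand and Ifit3 at chr19:34583279-34583578 on the plus strand.
Rsad2: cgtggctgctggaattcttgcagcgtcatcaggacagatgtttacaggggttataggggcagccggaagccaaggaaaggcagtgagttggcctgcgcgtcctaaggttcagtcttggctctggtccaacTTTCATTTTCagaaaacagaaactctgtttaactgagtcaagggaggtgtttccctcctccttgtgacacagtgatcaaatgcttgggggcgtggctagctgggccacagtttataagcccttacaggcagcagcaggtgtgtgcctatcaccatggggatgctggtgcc
Cxcl10: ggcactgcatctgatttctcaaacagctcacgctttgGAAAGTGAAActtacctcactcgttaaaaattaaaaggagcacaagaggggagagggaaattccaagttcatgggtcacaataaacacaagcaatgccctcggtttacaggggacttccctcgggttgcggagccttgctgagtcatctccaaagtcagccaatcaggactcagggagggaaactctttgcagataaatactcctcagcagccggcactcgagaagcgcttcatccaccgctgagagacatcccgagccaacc
Ifit3: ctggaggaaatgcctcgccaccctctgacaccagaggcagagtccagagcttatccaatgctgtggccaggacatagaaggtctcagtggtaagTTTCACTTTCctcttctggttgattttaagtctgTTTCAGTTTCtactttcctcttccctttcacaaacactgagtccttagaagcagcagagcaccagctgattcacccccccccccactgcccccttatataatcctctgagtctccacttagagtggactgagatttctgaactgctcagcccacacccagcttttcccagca
The motif stood in 3.44% of 32851 promoters and in at least 1 promoter of 3.99% of genes. Of the interferon list it stood in 10 of the 17 genes with an entry, and of the hypoxia, glycolysis and MHC class II lists in 0 of 9, 0 of 16 and 0 of 5. The genes were listed for their known response to interferon, so the share describes the list and not these cells.

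Immediate early genes and NF-kappaB feedback inhibitors were higher in KO members as well. Of 17 list genes, 12 were higher and 0 lower, with a median of 0.67, and 7 of 17 with a median of 0.54 in Arg1-negative macrophages. Egr1, an immediate early transcription factor, had 1947 CPM in KO members and 667 CPM in WT members (1.55, 1.38 to 1.71). Dusp1, a phosphatase that switches off MAP kinases, was at 2870 and 1375 CPM (1.06), Junb at 2192 and 1079 CPM (1.02), and Nfkbiz, an atypical inhibitor of NF-kappaB, at 1885 and 1031 CPM (0.87). These genes were found in most members of both libraries, and 5 cells held at most 44.0% of their WT UMIs. The list median was 0.89 in the cells gated after thinning. Of 7 genes of an RNA quality and stress list, Neat1 was higher (0.87) and the heat shock genes Hspa1b (-1.29) and Hsp90aa1 (-0.75) were lower in KO members, and the median mitochondrial share was 2.271% in KO and 2.290% in WT members.

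Cytokines and chemokines went both ways. Tnf, encoding tumour necrosis factor, had 1876 CPM in KO members and 755 CPM in WT members (1.31, and 0.65 in the cells gated after thinning), and Il1rn, the interleukin 1 receptor antagonist, 1649 and 795 CPM (1.05, and 0.22 in the cells gated after thinning). Inhba was at 836 and 338 CPM (1.30, 1.07 to 1.55, and 2.63 in the cells gated after thinning), and at 129 and 129 CPM in Arg1-negative macrophages (0.00). Il1b had 0.23, Cxcl2 -0.02 and Thbs1 0.11, all within 1.5-fold.
Of 17 chemokines, 4 were higher and 5 lower in KO. Those lower were Cxcl3 at 1070 and 2482 CPM (-1.21), Cxcl1 at 764 and 1410 CPM (-0.88), the platelet factor gene Pf4 at 986 and 2795 CPM (-1.50), Ccl12 (-0.82) and Cxcl9 (-3.73, but -0.06 without the 5 cells with most of its UMIs). Those higher were Cxcl10, Ccl24 (1.36), Ccl8 (1.12, from 8 KO and 7 WT cells) and Ccl4 (0.73). In Arg1-negative macrophages Cxcl3, Cxcl1 and Pf4 had ratios of 0.70, 0.96 and 0.20 and Cxcl9 0.79, above 0, while Ccl12 was lower there too (-0.92). The ratio of Cxcl3 in members was -2.87 in the cells gated after thinning and -0.81 without 5 cells. Values without 5 cells leave out a larger part of WT than of KO members. Spp1 had 1372 CPM in KO members and 2836 CPM in WT members (-1.05, -1.15 to -0.94) and 573 and 327 CPM in Arg1-negative macrophages (0.81). Its ratio was -0.16 when at least 8 macrophage-gene UMIs were required, -0.56 without 5 cells and -1.94 in the cells gated after thinning, and an Spp1 UMI was found in 56.60% of KO and 55.17% of WT members.

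Genes of oxidative stress, haem and iron were partly lower in KO members. Of 9 past the filter, 4 were lower and 0 higher, with a median of -0.51, while in Arg1-negative macrophages 0 of 8 were lower. Hmox1, the haem-degrading enzyme heme oxygenase 1, had 617 CPM in KO members and 2361 CPM in WT members (-1.94, -2.07 to -1.80) and 922 and 616 CPM in Arg1-negative macrophages (0.58). Gclm, a subunit of the enzyme that starts glutathione synthesis, was at 28.3 and 154 CPM (-2.44), the ferritin gene Ftl1 at 8884 and 13630 CPM (-0.62), and the peroxidase gene Prdx1 at 429 and 2139 CPM (-2.32). Of the WT UMIs, 5 cells held 74.6% of Prdx1, 78.5% of Gclm and 52.6% of Hmox1. Without the 5 cells highest for each gene the ratios were -0.77 for Prdx1, -1.08 for Gclm and -1.49 for Hmox1. That setting leaves out a larger part of WT than of KO members, which favours higher ratios. With at least 4 Arg1 UMIs the ratios were -0.78, -0.94 and -1.70. Prdx1 had -0.25 in the cells gated after thinning.

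The hypoxia, glycolysis and MHC class II lists had medians away from 0 between Arg1-expressing and Arg1-negative macrophages of each library. The monocyte gate was not part of that comparison. Between KO and WT members these lists had 0 of 12, 0 of 16 and 0 of 7 genes past 1.5-fold. Their medians between KO and WT members were 0.11, -0.04 and 0.13. Hilpda had 0.28 (0.17 to 0.39), Pgk1 -0.03 (-0.17 to 0.12) and Cd74 0.13 (0.08 to 0.17). Of 9 checkpoint genes past the filter none was higher or lower, Cd274, which encodes PD-L1, having 0.48. In arginine and polyamine metabolism Odc1 had 206 CPM in KO members and 89.5 CPM in WT members (1.20), and Arg2 (1.04), Nos2 (1.34) and Slc7a2 (2.76, 1.12 to 5.09, an arginine transporter gene with 3 WT UMIs, at -0.26 without 5 cells) were also higher, each found in at most 34 KO and 13 WT cells. Asl, an enzyme of the urea cycle, was lower by the fold rule (-0.66, with an interval of -1.52 to 0.21 that covers 0).

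Smaller lists held single genes that differed between KO and WT members. In the lipid list, 2 of 13 genes were higher and 3 lower: Abca1 was at 254 and 111 CPM (1.20, 0.78 to 1.63) with a log2 ratio of 1.0 in Arg1-negative macrophages, and the lipoprotein lipase gene Lpl was also higher (1.67, from 23 KO and 6 WT cells). Ctsd, the lysosomal protease cathepsin D, was at 772 and 1416 CPM (-0.88), Lipa, the lysosomal acid lipase, at 61.0 and 117 CPM (-0.94), and Fabp4, a fatty acid carrier, at 48.9 and 107 CPM (-1.13, from 6 cells each). In Arg1-negative macrophages Ctsd and Lipa had 0.22 and 0.47, so the lower values of these lysosomal genes were found in Arg1-expressing cells and the difference between the populations was not tested.

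Of the 9 IL-4 and STAT6 genes, 3 were higher and 3 lower. Egr2, a transcription factor of alternative activation, was at 316 and 134 CPM (1.24), Cd83, a surface protein of activated antigen-presenting cells, at 1186 and 650 CPM (0.87), and the lectin genes Clec10a (-1.32) and Mgl2 (-2.25) were lower, from at most 15 KO and 6 WT cells. Stat6 itself had -0.55 and Il4ra, the IL-4 receptor chain, 0.24, within 1.5-fold. Among pattern receptors Tlr2, a receptor for bacterial lipoproteins, was at 398 and 251 CPM (0.66), while Cd14 had -0.07 and Clec4e, a receptor for mycobacterial glycolipid, 0.03. Among matrix genes Tgfbi, a TGF-beta-induced adhesion protein, was at 2210 and 1342 CPM (0.72) and Mmp14, a membrane metalloproteinase, at 127 and 77.8 CPM (0.71). Beside Kcnj2, the calcium-activated potassium channel gene Kcnn4 was at 61.0 and 25.3 CPM (1.27, 0.40 to 2.25), from 44 of 106 KO and 9 of 58 WT cells.

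**Figure D4:**
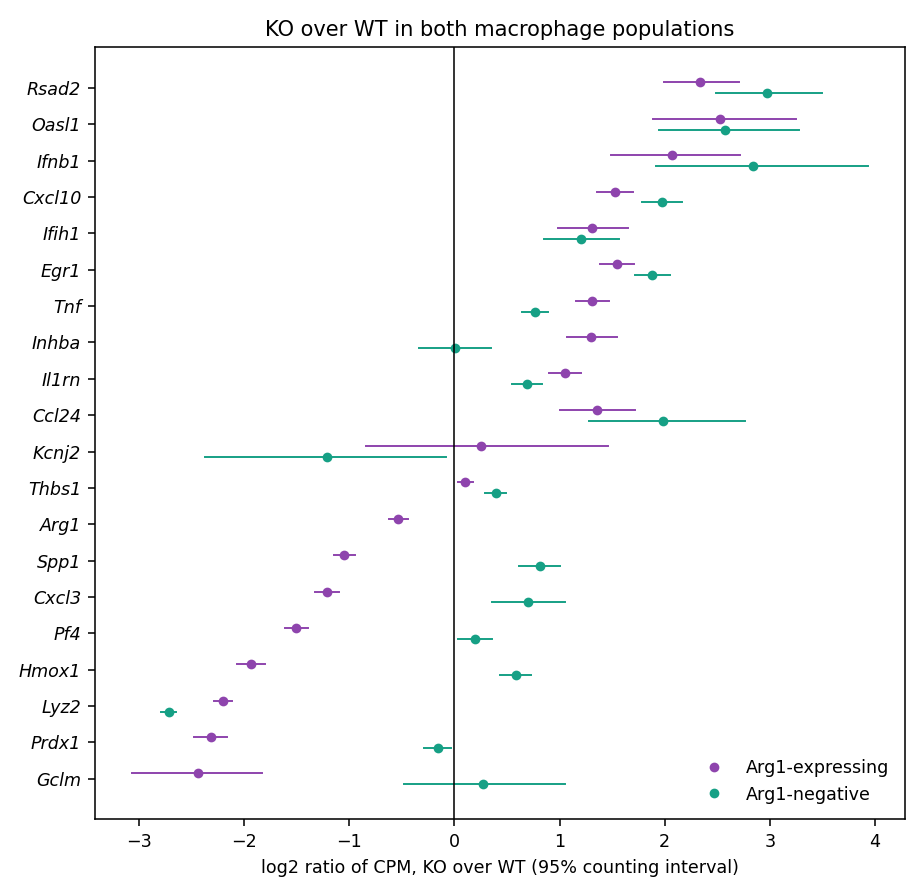
Log2 ratio of summed CPM, KO over WT, with exact 95% counting intervals for 20 genes in Arg1-expressing (purple) and Arg1-negative (green) macrophages. Rsad2, Oasl1, Ifnb1, Cxcl10 and Egr1 lie above 0 in both populations, Lyz2 below 0 in both, and Spp1, Cxcl3, Pf4 and Hmox1 lie below 0 in Arg1-expressing and above 0 in Arg1-negative cells.

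**Figure D5:**
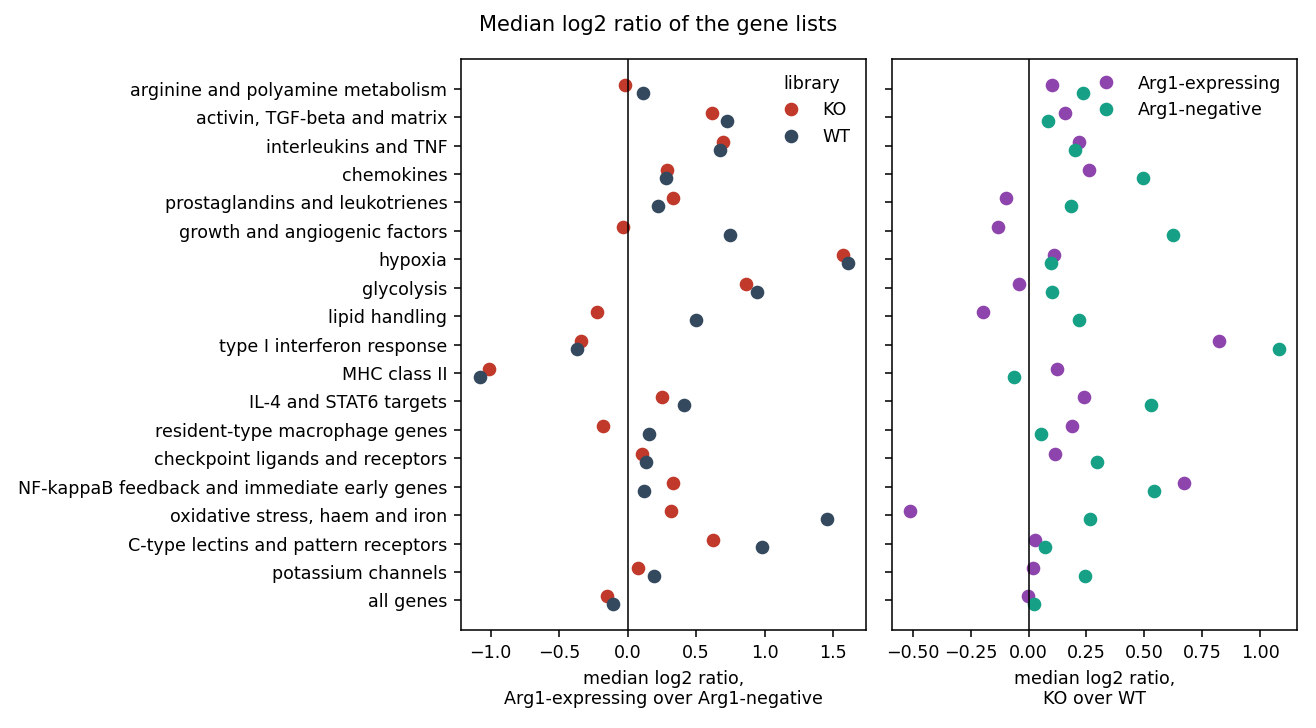
Median log2 ratio of 18 gene lists and of all genes counted, Arg1-expressing over Arg1-negative macrophages in each library (left) and KO over WT in each population (right). On the left hypoxia stands highest and MHC class II lowest in both libraries, and on the right the type I interferon list stands highest, at 0.82 in Arg1-expressing and 1.08 in Arg1-negative cells (-0.03 for Arg1-expressing cells gated after thinning).

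Several genes at the ends of the KO over WT ranking were held by few cells. Rsad2, by contrast, was found in 44.34% and Lyz1 in 21.70% of KO members. The 12 highest genes were Tnfrsf9, Mmp12, Slc5a3, Ccr7, Ereg, Slc7a2, Lyz1, Trerf1, Oasl1, Ckap2l, Ccnd2 and Rsad2. Tnfrsf9, the co-stimulatory receptor 4-1BB, was at 74.7 and 3.89 CPM from 16 KO and 2 WT cells, Mmp12, macrophage elastase, at 150 and 11.7 CPM from 14 and 3 cells, and Ereg, a growth factor, came from 1 KO cell. Ccr7, a homing receptor of migratory dendritic cells, was at 92.7 and 9.72 CPM with 93.5% of the KO UMIs in 5 cells. Lyz1, the neighbour and close copy of Lyz2, was at 119 and 17.5 CPM (2.76). In Arg1-negative macrophages the Lyz1 ratio was 3.996 (3.173 to 4.963). Lyz2 went the other way in both populations (-2.20 and -2.72). Reads of the 2 genes can be confused, so the Lyz1 level is uncertain, and the part of this in its ratio was not tested.
The 12 lowest were Saa3, Prg4, Alox15, Marco, Hspb1, Iigp1, Cd5l, Fcna, C4b, Cxcl9, Mmp8 and Akr1b8. Saa3, a serum amyloid gene, had 0 UMIs in KO and 650 in WT members, a ratio of -8.94 or lower with the KO sum set at the floor of 3 counts. A group of 4 WT cells with a Prg4 UMI held 94.31% of the Saa3 UMIs, 97.14% of those of Hspb1 and all of those of Prg4, Alox15, Cd5l and C4b. Among KO members 0 of 106 had a Prg4 UMI, which allows a share of up to 2.830% at a limit of 3 counts and 3.420% by the exact interval. Prg4, Alox15 and Cd5l are known as genes of large macrophages of the body cavities, and the origin of the 4 cells was not tested.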

How the data were processed

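CD45+ cells sorted from day 10 tumours were profiled with the 10x 3′ v3 kit, 1 library of 3 pooled mice per genotype. The deposited matrices hold raw UMI counts per gene and barcode for 55450 genes with no normalization, per the file headers and values. GRCm38, Seurat 4.0.1, Cell Ranger 3.1.0 and bcl2fastq 2.20 stand in the submitters' processing notes, while the matrices were written by Cell Ranger 4.0.0 per the file headers. Gene identifiers match GENCODE M21, and where a symbol had several, the identifier with most UMIs kept it.

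Counts were summed over cells per library and expressed as CPM with Python 3.11.15, numpy 2.4.6, scipy 1.17.1 and pandas 2.3.3 (figures with matplotlib 3.10.9). Intervals are 95% exact Poisson for CPM, exact conditional binomial for ratios and exact (Clopper-Pearson) for shares; ratios of shares have a log interval. A group with 0 UMIs was set at a floor of 3 counts over the group. A gene had to average 20 CPM, and was called past 1.5-fold (KO over WT) or past 2-fold in both libraries (Arg1-expressing over Arg1-negative). No p-value was computed, since each genotype has 1 library. No doublet caller was run. The scripts were tested on simulated data. T cells were taken by a gate of at least 2 UMIs of Cd3d and Cd3e together. The gate left out cells with a UMI of Csf1r, Adgre1, Cd68, Fcgr1 or Cd79a. Alternatives run numbered 15, 4 of them added after seeing the data.

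The text names the 12 genes at each end of KO over WT, the 15 at each end of Arg1-expressing over Arg1-negative by the smaller of the library ratios, the 10 at each end of the correlation with Arg1, and genes of the lists with large ratios. Left out of the ends were the rule genes, Xist and Y-linked, haemoglobin, immunoglobulin, T cell receptor, mitochondrial and ribosomal protein genes and unnamed gene models. Members, lists and rules were chosen with earlier results of these data known. Promoter sequences are RefSeq's on GRCm38.p6.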

Additional observations from a re-analysis of the deposited data

Results flagged for a closer look

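For 3 genes the difference between Arg1-expressing and Arg1-negative macrophages had opposite directions in the libraries, by 2-fold or more in each. That is 0.0608% of the 4933 genes counted. The difference between libraries was not tested, since each genotype has 1 library. Prdx1, a peroxide-reducing enzyme, was at 429 CPM in Arg1-expressing and 873 CPM in Arg1-negative KO macrophages (log2 -1.03), and at 2139 and 976 CPM in WT macrophages (1.13). Cyb5a, which encodes cytochrome b5, was at 30.1 and 80.1 CPM in KO (-1.41) and 228 and 109 CPM in WT macrophages (1.06). Ms4a8a, of the membrane-spanning 4A family, was at 9.45 and 19.0 CPM in KO (-1.01) and 42.8 and 15.1 CPM in WT macrophages (1.5), from 11 and 29 UMIs in KO and 22 and 13 UMIs in WT. For Prdx1, 5 cells held 74.6% of the UMIs of WT Arg1-expressing macrophages.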

How the results depend on the processing

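Of 353 gene values of Arg1-expressing over Arg1-negative macrophages under the alternatives, 31 moved and 3 changed sign; of 463 KO over WT values 89 and 3, of 40 correlations 3 and 3, and of 35 list medians 10 and 1 did so. Counts of genes (higher, lower) in KO members, 593 and 536, were 1106 and 966 when cells were thinned to 3000 UMIs before gating, 238 and 163 at a minimum of 50 CPM, 1991 and 1747 without a minimum, 62 and 26 at 200 CPM (added after seeing the data), and 916 and 134 without the 5 cells with most UMIs of each gene, which takes 5 of 106 KO but 5 of 58 WT cells. Genes higher in Arg1-expressing macrophages of both libraries (125) numbered 71, 247 and 32 at 50 CPM, no minimum and 200 CPM. Genes lower in both (91) numbered 34, 399 and 10 there, 140 with at least 4 Arg1 UMIs, 205 thinned, 60 centred, 142 on the reduced total and 180 without 5 cells. The log2 ratio of shares (1.52) was 2.04 with at least 8 macrophage-gene UMIs and 1.01 thinned. Thinning before gating also turned Ckap2l (-0.31), Ifih1 (-0.088), Ccl24 (-1.40), Gpat3 (-0.26), Cd72 (0.00) and the interferon list median (-0.027). Leaving out 5 cells turned Slc7a2 (-0.26), thinning to 5000 UMIs the correlations of Tomm20 (0.034) and Slc38a1 (0.099), and Pearson's coefficient without thinning that of Edf1 (0.066). The cause was not tested. Without the 4 cells with a Prg4 UMI the KO counts were 591 and 477, and without cells with a Ccr7 UMI 561 and 572.

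No paired analysis was possible because each genotype has 1 library, which leaves no library to omit, and all intervals cover counting error only. At 58 WT cells, genes of under 20 CPM rest on about 10 UMIs or fewer, and differences between mice cannot be told apart from those between genotypes.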

Other observations

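Of the lists not described above, C-type lectins and pattern receptors had 3 of 10 genes higher and 0 lower in Arg1-expressing than in Arg1-negative macrophages of both libraries, prostaglandin and leukotriene genes 2 of 9 higher and 0 lower, and checkpoint genes 0 of 10 higher and 0 lower. Cd14, a co-receptor for lipopolysaccharide, had log2 ratios of 1.59 in KO and 1.43 in WT, and Olr1, a receptor for oxidised lipoprotein, 2.23 and 1.06. Ptgs2, the inducible cyclooxygenase, had 1.14 and 1.0. F13a1, a coagulation transglutaminase gene of macrophages, had 1.39 and 1.40, and Selenop, a selenium transport protein, -1.11 and -1.39. In the IL-4 and STAT6 list, which holds known targets of alternative activation, 1 of 9 genes was higher and 2 lower.

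Of the kept cells with at least 2 Arg1 UMIs, 216 in KO and 165 in WT, 106 and 58 were members and 53 and 11 fell in the monocyte gate. Under the macrophage-gene minimum were 28 and 54. Of those past it, 11 and 34 held a lymphocyte UMI, 13 and 9 were over the dendritic limit and 12 and 6 over the cycling limit. A cell can be counted under more than 1 of these limits.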
